A study of Homo sapiens with 3 samples.

Results

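Genes of the extracellular matrix and of the proteases that cut it were described in BTSH cells. The set holds every gene whose array symbol belongs to the collagen, laminin, MMP, TIMP, ADAM or ADAMTS families, with NPNT, FN1, FBN1, DCN, LUM, SPARC and POSTN. By this rule 52 array features, standing for 48 of the 14884 named genes, were members. They are 20 ADAM genes, 18 MMP genes, 4 TIMP genes and 6 genes of matrix proteins (NPNT, FN1, FBN1, DCN, LUM and COL26A1). Other collagens, the laminins, the ADAMTS genes, MMP2, MMP3, MMP7, MMP9, SPARC and POSTN have no named feature here and were not analysed.

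BTSH is a clone picked from the HER2+ breast cancer line BT474 for its high sensitivity to trastuzumab, an antibody against HER2. RNA of untreated BTSH cells grown in DMEM with serum was measured on 3 HuGene 2.0 ST arrays, described as biological replicates. There was a single group, so no test between groups could be made. The arrays of BT474 and of the resistant BTRH cells were not analysed here, and a single clone cannot stand for hypersensitive cells in general.

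The matrix surrounds cells with structural proteins such as fibronectin and collagen, and epithelial cells rest on a thin basement membrane. MMPs are zinc proteases that degrade these proteins, either secreted or held at the cell surface, and TIMPs inhibit them. ADAMs are membrane proteases that release the outer parts of cell surface proteins, a process called shedding. ADAM10 and ADAM17 are the best known sheddases of the HER receptors and of their ligands, and in breast cancer cells ADAM10 can release the outer part of HER2.

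Values are RMA signals on the log2 scale. A gene was called above background in an array when its signal passed a background level. That level is the 95th percentile of 106 features whose genes have no known use in breast epithelium (vomeronasal receptors, late cornified envelope proteins and keratin-associated proteins). It was 6.70, 7.08 and 6.83 in replicates 1, 2 and 3. With 3 arrays, precision is limited throughout. Signals also reflect the probes, so levels of different genes were not ranked, and a signal below background does not show that a transcript is missing. The arrays correlated with Pearson r of 0.991 to 0.992 across features, which are not independent replicates. Of 5 named epithelial markers, 4 were above background in all 3 arrays, among them EPCAM and KRT19, and KRT8 in none. Of 12 named markers of fibroblasts, endothelium and leukocytes, 0 were above it in all 3 arrays, whereas CD68 was in 2 arrays and VIM in 1. Over all named genes, 30.4% were above it in all 3 arrays and 63.3% in none. The summed signal of the 5 fibroblast markers was 7.65 to 7.78 on the log2 scale. This is a sum over genes, so it cannot be set against the background, which is a level for single features.

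Most members were near or below the background in BTSH cells. Of the 48 members, 8 (16.7%) passed the background in all 3 arrays, 1 passed it in 2 arrays and 39 passed it nowhere. The share of all named genes above background in all 3 arrays was 30.4%, and that above it in no array was 63.3%. Of the named protein-coding genes, 36.5% passed in all 3. The members above background were the sheddases ADAM9, ADAM10, ADAM15 and ADAM17, the membrane-bound proteases MMP15 and MMP17, the inhibitor TIMP1 and the basement membrane protein NPNT. The median of the members' mean signals was 4.34, against 5.71 for all named genes. These counts describe the set and were not tested.

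**Figure D1:**
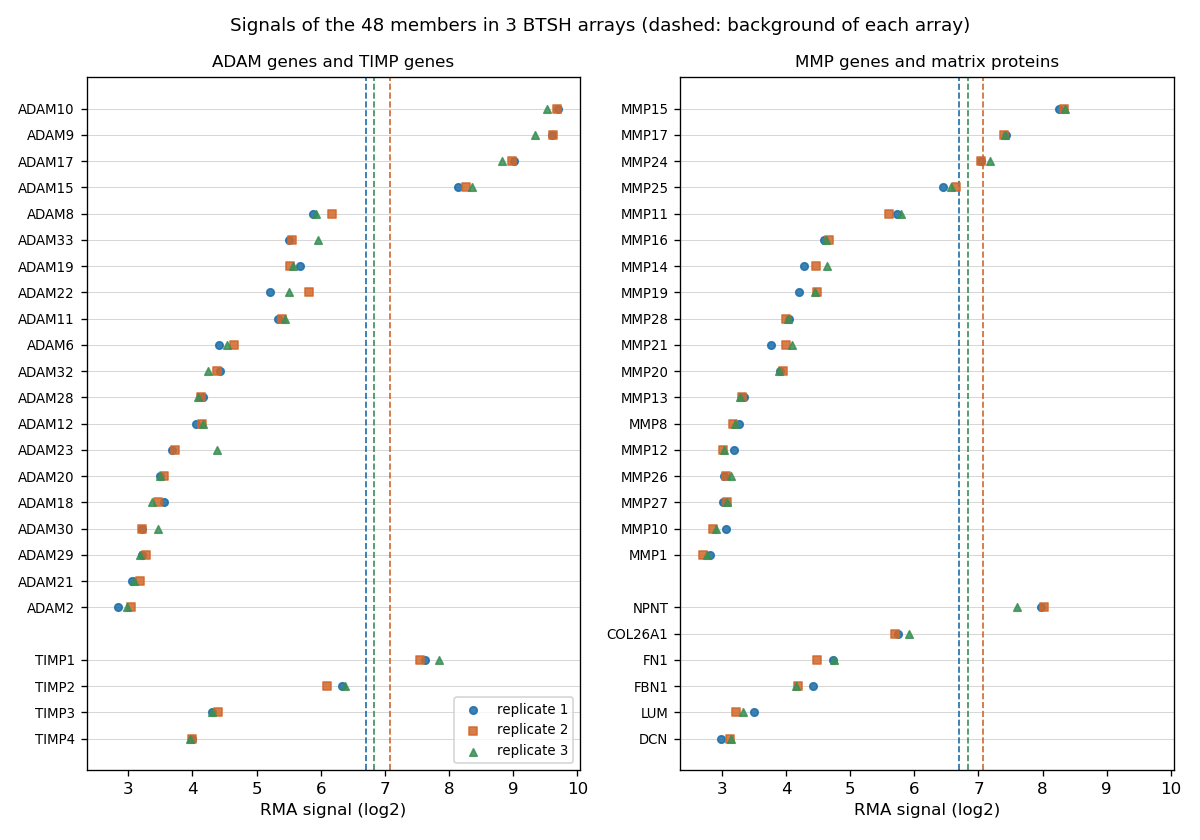
RMA signal (log2, x axis) of each of the 48 members (y axis) in the 3 BTSH arrays, 1 symbol for each replicate. The dashed lines are the background of the array in the same colour (6.70, 7.08 and 6.83). Only 4 ADAM genes, MMP15, MMP17, TIMP1 and NPNT lie to the right of the background in every array, and MMP24 lies at the line.

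The promoters of several members are printed to show how they differ in CG dinucleotides, which are dense at many genes with broad use and rare at many tissue-restricted genes. Each sequence runs from 250 bases before to 50 bases after the start of the gene, 5′ to 3′ on the strand of the gene, from RefSeq on GRCh38.p14, with CG in capitals. NPNT, ADAM10, MMP15 and TIMP1 were above background in all 3 arrays, and FN1, MMP10 and MMP8 in none. NPNT lies at chr4:105895221-105895520 (plus strand), ADAM10 at chr15:58749658-58749957 (minus strand), MMP15 at chr16:58025504-58025803 (plus strand), TIMP1 at chrX:47582186-47582485 (plus strand), FN1 at chr2:215436019-215436318 (minus strand), MMP10 at chr11:102780579-102780878 (minus strand) and MMP8 at chr11:102724905-102725204 (minus strand).
NPNT: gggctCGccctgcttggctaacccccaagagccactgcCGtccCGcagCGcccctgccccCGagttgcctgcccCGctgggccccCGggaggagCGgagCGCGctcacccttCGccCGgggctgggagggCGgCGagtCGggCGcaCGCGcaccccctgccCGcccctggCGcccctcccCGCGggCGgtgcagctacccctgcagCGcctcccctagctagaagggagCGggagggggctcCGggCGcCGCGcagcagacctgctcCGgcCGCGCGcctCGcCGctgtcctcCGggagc
ADAM10: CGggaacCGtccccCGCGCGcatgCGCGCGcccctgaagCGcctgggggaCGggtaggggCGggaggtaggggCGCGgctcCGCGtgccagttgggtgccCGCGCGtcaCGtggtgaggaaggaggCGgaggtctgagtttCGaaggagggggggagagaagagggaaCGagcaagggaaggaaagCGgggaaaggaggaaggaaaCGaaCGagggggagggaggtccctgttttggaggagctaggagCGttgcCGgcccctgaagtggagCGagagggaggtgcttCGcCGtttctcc
MMP15: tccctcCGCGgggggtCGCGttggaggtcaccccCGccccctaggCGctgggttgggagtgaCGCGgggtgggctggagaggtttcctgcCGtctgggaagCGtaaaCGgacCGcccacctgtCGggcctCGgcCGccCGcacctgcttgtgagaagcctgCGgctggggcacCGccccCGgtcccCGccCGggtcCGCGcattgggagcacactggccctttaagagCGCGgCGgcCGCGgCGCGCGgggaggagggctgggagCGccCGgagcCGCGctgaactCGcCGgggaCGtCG
TIMP1: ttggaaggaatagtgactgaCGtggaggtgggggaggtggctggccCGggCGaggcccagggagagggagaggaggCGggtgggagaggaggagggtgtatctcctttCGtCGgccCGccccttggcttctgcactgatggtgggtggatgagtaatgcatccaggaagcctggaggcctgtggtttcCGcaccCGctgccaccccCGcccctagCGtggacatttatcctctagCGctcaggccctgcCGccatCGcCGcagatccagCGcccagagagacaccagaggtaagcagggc
FN1: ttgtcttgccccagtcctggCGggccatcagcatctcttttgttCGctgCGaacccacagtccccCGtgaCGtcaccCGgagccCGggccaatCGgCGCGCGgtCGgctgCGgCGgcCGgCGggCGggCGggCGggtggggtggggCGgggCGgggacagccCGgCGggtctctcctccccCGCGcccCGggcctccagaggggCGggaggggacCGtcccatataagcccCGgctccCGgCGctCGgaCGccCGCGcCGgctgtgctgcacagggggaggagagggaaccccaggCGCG
MMP10: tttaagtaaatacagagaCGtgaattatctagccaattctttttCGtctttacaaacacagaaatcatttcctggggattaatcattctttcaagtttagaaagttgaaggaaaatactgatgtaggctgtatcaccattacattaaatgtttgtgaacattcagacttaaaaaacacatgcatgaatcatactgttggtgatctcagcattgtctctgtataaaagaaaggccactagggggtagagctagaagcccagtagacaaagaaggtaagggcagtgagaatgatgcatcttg
MMP8: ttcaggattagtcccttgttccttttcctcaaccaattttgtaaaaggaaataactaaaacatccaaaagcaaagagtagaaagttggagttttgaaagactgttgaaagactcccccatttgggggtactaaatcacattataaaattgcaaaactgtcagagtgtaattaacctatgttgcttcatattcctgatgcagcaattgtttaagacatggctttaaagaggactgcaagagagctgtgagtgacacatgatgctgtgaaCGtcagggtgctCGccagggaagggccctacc

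A promoter sequence was available for 29 of the 48 members. Among the printed windows, that of NPNT held 36 CG dinucleotides, that of ADAM10 30, that of MMP15 39 and that of TIMP1 16. MMP10 and MMP8, with 2 CG dinucleotides each, are at the other end. The windows of FN1 (38) and ADAM23 (41) were as rich as those of the expressed members, although both genes were below background, so a CG-rich promoter did not go along with a signal in every member. Over the 6 members above background in all 3 arrays the median was 36, with a range of 16 to 44, and over 22 members above it in no array it was 15, with a range of 0 to 41. All named genes showed the same order, with a median of 27 over 3741 genes above background in all 3 arrays and of 17 over 6265 genes above it in none. The letters TATAAA, searched on both strands of the whole window, were present in 6 of 29 members, namely ADAM21, MMP8, MMP10, MMP20, MMP21 and MMP26, and in 8.49% of all 10749 named genes with a promoter. All 6 were below background in every array, and in all named genes TATAAA was present in 4.73% of those above background and in 11.3% of those in no array. The AP-1 motif TGAGTCA, on either strand, was in 0 of the 29 windows and in 3.85% of all, a difference that was not tested. Members without a window, among them MMP1, MMP12 and MMP13, could not be searched. A match of letters is a description and not a binding site.

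**Figure D2:**
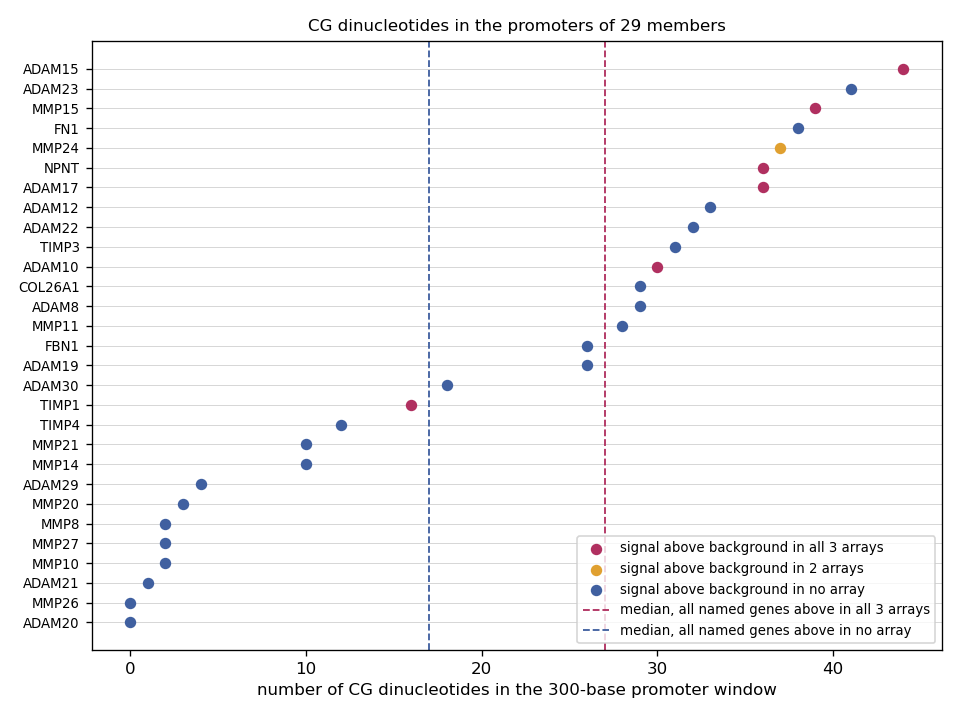
Number of CG dinucleotides (x axis) in the 300-base promoter window of each of 29 members (y axis), coloured by the number of arrays in which the gene was above background. The dashed lines are the medians of all named genes above background in all 3 arrays (27) and in no array (17). Members below background spread from 0 to 41, whereas those above it in all 3 arrays held 16 to 44.

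Of the 20 ADAM genes, 4 (20%) passed the background in every array, below the 30.4% found over all named genes. ADAM10, which releases the outer parts of Notch and E-cadherin as well, had signals of 9.69, 9.69 and 9.53 in replicates 1, 2 and 3 (9.64 ± 0.09, SD, n = 3). ADAM17, which frees TNF and the EGF receptor ligands TGF-alpha and amphiregulin, had 9.02, 8.98 and 8.82 (8.94 ± 0.10). Both were far above background, by at least 2.61 and 1.91 on the log2 scale in every array, and both were lowest in replicate 3.

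ADAM9, a widely used member of the family, had signals of 9.60, 9.62 and 9.34 (9.52 ± 0.16). ADAM15, whose disintegrin domain carries an RGD motif that can bind integrins, had 8.14, 8.26 and 8.36 (8.25 ± 0.11). ADAM9 was lowest in replicate 3, like ADAM10 and ADAM17, whereas ADAM15 was highest there. These 4 genes remained above the 99th percentile of the background features in all 3 arrays.

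The other 16 ADAM genes were below background in all 3 arrays. Of the 12 ADAM genes listed with an intact zinc site, 4 (33.3%) were above background, and of the 7 listed without one, 0 were. The former share is near that of all named genes (30.4%), and the difference between the classes was not tested. Among those with a zinc site, ADAM8, which leukocytes use, had signals of 5.87, 6.18 and 5.92, and ADAM33 had 5.50, 5.55 and 5.96. ADAM19 had a mean of 5.59 ± 0.08 and ADAM12, a protease often found in carcinoma, one of 4.13 ± 0.06. ADAM28 was at 4.13 ± 0.04, and the testis genes ADAM20, ADAM21 and ADAM30 had means of 3.52, 3.11 and 3.29. Among those without a zinc site, the neuronal genes ADAM11, ADAM22 and ADAM23 had means of 5.39, 5.51 and 3.93. The genes of sperm and testis, ADAM2, ADAM18, ADAM29 and ADAM32, had means of 2.96 to 4.35. ADAM6, a pseudogene in humans, had a mean of 4.53 ± 0.12.

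Partners that ADAM proteases need were looked up in a list drawn up after the values of the members were seen. ADAM10 leaves the endoplasmic reticulum with the help of 6 related tetraspanins, all of which have a named feature. TSPAN14 (10.25, 10.13 and 10.14), TSPAN15 (8.73, 9.03 and 8.97) and TSPAN17 (8.75, 8.66 and 8.80) were above background in all 3 arrays. TSPAN5, TSPAN10 and TSPAN33 were above it in none, with means of 5.79, 4.49 and 6.15. The partners of ADAM17, the pseudoproteases RHBDF1 (6.65, 6.66 and 6.64) and RHBDF2 (5.68, 5.96 and 5.89) and the adaptor FRMD8, were below background in every array. RHBDF1 missed it by little in replicate 1, where the background was 6.70. Of all named genes, 30.4% passed in all 3 arrays and 63.3% in none. The calls of these partners were not tested against those shares.

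Of the 6 membrane-type MMP genes, 2 (33.3%) were above background in all 3 arrays, a share near the 30.4% of all named genes. MMP15, anchored by a transmembrane segment, had signals of 8.25, 8.33 and 8.35 (8.31 ± 0.05), at least 1.26 over the background of each array. MMP17, held at the surface by a lipid anchor, had 7.43, 7.40 and 7.41 (7.41 ± 0.01). The 3 replicates of MMP17 lay closer together than those of any other member, but its smallest margin over background was 0.33.

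MMP24, another membrane-type protease, had signals of 7.04, 7.04 and 7.18 and was above background in 2 of 3 arrays, missing it in replicate 2 by 0.04. Its other feature was above background in no array (4.66, 4.39 and 4.52), so its call rests on 1 of 2 features. MMP25, a lipid-anchored protease known from neutrophils, was below background in every array, with 6.45, 6.65 and 6.57. The other 2 features of MMP25 had means of 5.83 and 4.54. MMP14, the main activator of secreted pro-MMP2, was below background with 4.28, 4.47 and 4.64, and MMP16 was so with a mean of 4.63 ± 0.04.

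None of the 12 secreted MMP genes with a named feature was above background in any array. The share of all named genes above it in no array was 63.3%, and the difference was not tested. The collagenases MMP1, MMP8 and MMP13, which open the triple helix of fibrillar collagen, had means of 2.76, 3.22 and 3.31. The stromelysin MMP10 had a mean of 2.95 ± 0.11. MMP11, which stromal cells of breast carcinomas make, had 5.74, 5.61 and 5.79, below the background but above the 90th percentile of the same features in all 3 arrays. MMP12, the elastase of macrophages, MMP26 and MMP27 had means of 3.08, 3.08 and 3.06. MMP19, MMP20, MMP21 and MMP28 had means of 4.38, 3.91, 3.96 and 4.03.

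Genes for MMP1, MMP8, MMP10, MMP12, MMP13, MMP20 and MMP27 are direct neighbours on chromosome 11, in a run of 9 MMP genes that also holds MMP3 and MMP7. In BTSH cells all 7 named genes of the run were below background in every array, with means of 2.76 to 3.91. LUM and DCN, neighbours on chromosome 12, and ADAM20 and ADAM21, neighbours on chromosome 14, were below background as well. Failing the background in every array was common here, at 63.3% of the 14884 named genes. Whether neighbours share a call more often than other genes was not tested. Neighbouring members did not always share their call, since ADAM9 was far above background while ADAM32, ADAM18 and ADAM2, which follow it on chromosome 8, were below it.

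Of the 4 TIMP genes, TIMP1 alone (25%) was above background in all 3 arrays, a share near the 30.4% of all named genes. TIMP1, a secreted protein that blocks most soluble MMPs and also ADAM10, had signals of 7.62, 7.55 and 7.85 (7.67 ± 0.16), with a smallest margin of 0.47 in replicate 2. TIMP2, which takes part in the activation of pro-MMP2, had 6.33, 6.10 and 6.38 (6.27 ± 0.15). TIMP3, the inhibitor of ADAM17 that binds to the matrix, had 4.31, 4.40 and 4.30, and its other feature had a mean of 3.59 ± 0.08. TIMP4 had 3.99, 4.00 and 3.97.

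Of the 6 matrix protein genes, NPNT alone (16.7%) was above background in all 3 arrays, where 30.4% of all named genes were. The difference was not tested. NPNT encodes nephronectin, a protein of epithelial basement membranes with EGF-like repeats and an integrin-binding RGD motif, known from kidney development in mice. Its signal was 7.98, 8.03 and 7.60 in replicates 1, 2 and 3 (7.87 ± 0.23). Replicates 1 and 2 were close together and replicate 3 was lower by 0.40 than their mean, and the smallest margin over background was 0.77. NPNT is among the genes whose qRT-PCR primers the study lists. The study searched these arrays for genes changed in opposite directions in BTRH and BTSH cells relative to BT474, a comparison that was not analysed here.

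NPNT had the largest spread of the 8 members above background, and yet its highest and lowest replicates were 1.34-fold apart. The 5 hypoxia-responsive genes above background were all lowest in replicate 3, as were 47.3% of all named genes above background. They had a mean deviation there of -0.56 from the other replicates, and the list's summed signal was 11.44, 11.11 and 10.85 in replicates 1, 2 and 3. Of 7 named immediate early genes, the 2 above background in all 3 arrays had mean deviations of -0.35, 0.49 and -0.14. They were highest in replicate 2, where NPNT was highest as well. EGR1 (6.38, 8.48 and 6.42) and JUN (6.72, 8.11 and 6.40), above background in 1 and 2 arrays, were also highest there. So were FOS and ATF3, below background in every array, whereas FOSB, also below it, was lowest there (5.89, 5.68 and 5.81). The share of all named genes highest in replicate 2 was not counted. The part of either list in the level of NPNT was not tested. Of 3 named partners of NPNT, which hold it in the basement membrane in mice or form a related complex, FREM2 was above background in 2 arrays (6.73, 6.93 and 6.98), and FRAS1 (6.48, 6.64 and 6.51) and FREM1 (mean 3.32) in none.

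Matrix proteins that fibroblasts make in quantity had signals below background. FN1, which encodes fibronectin, had 4.73, 4.48 and 4.75. FBN1, the fibrillin of elastic microfibrils, had 4.42, 4.18 and 4.15. The small proteoglycans of collagen fibrils, DCN (2.98, 3.13 and 3.14) and LUM (3.51, 3.21 and 3.33), were below it in every array. COL26A1, the collagen of the set, had 5.75, 5.69 and 5.91 and passed the 90th percentile of the background features in all 3 arrays.

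The list of genes that act on matrix proteins holds 28 named genes, of which 7 passed the background in all 3 arrays, 1 (FREM2) in 2 arrays and 20 in no array. They cover collagen folding, procollagen processing, cross-linking, the basement membrane, protease regulators and the partners of NPNT. Over all named genes, 30.4% passed in all 3 arrays and 63.3% in none, so the list was near the background share. Of 7 genes of collagen folding and hydroxylation, 3 passed in all 3 arrays. These were PPIB (mean 11.17), CRTAP (9.12) and the collagen galactosyltransferase gene COLGALT1 (8.76), whereas P3H1, P3H2, P3H3 and P3H4 were above background in no array. All 5 named genes of procollagen processing, among them BMP1 (mean 5.05), and all 5 of cross-linking, among them LOX (5.54) and LOXL2 (4.97), were below it. Of the basement membrane genes, AGRN (6.97, 7.36 and 7.26) was above background and NID1, NID2 and HSPG2 were not.

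Of the 4 named regulators of the proteases, which are part of the same 28 genes, 3 passed the background in every array, where 30.4% of all named genes did. FURIN, the convertase that removes the inhibitory prodomain of membrane-type MMPs and of many ADAMs, had signals of 7.73, 7.75 and 7.73. BSG, a surface glycoprotein known to induce MMPs in neighbouring fibroblasts, had 11.31, 11.25 and 11.31, and CST3, an inhibitor of cysteine proteases, 9.40, 9.45 and 9.57. RECK, a membrane inhibitor of MMPs, was below background with a mean of 4.06. Among other convertases, looked up after the values were seen, PCSK7 passed in some arrays (6.78, 6.99 and 7.11), and PCSK5 and PCSK6 in none.

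Replicates of the members agreed closely. The median SD over the 48 members was 0.09 on the log2 scale, against 0.12 over all named genes. Over the 8 members above background it was 0.106, near the 0.111 of all named genes above background. At their own level, 17 of 48 members had an SD above the median of named genes. No member was 2-fold apart between any 2 replicates (0 of 48), a cut-off that the methods used for differential expression, and 0.215% of all named genes were. The largest SDs were those of ADAM23 (0.39), ADAM22 (0.30), ADAM33 (0.25), NPNT (0.23) and MMP14 (0.18). ADAM23, with signals of 3.67, 3.72 and 4.38, lay above the 95th percentile of the SD of genes at its level (0.28), but it was below background in all 3 arrays.

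**Figure D3:**
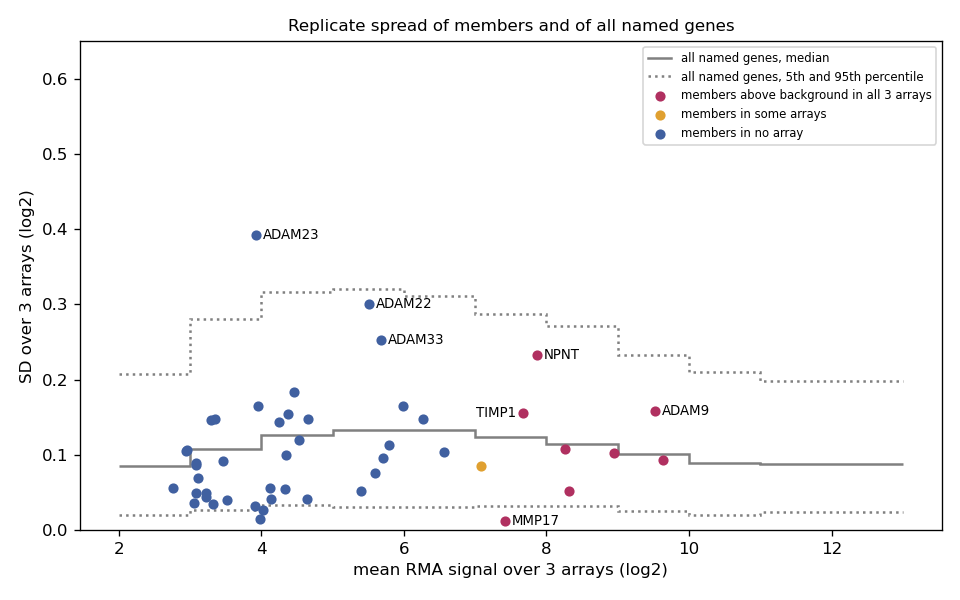
SD over the 3 BTSH arrays (y axis, log2) against the mean RMA signal (x axis, log2) of the 48 members, coloured by call. The grey lines are the median and the 5th and 95th percentiles of the SD of all named genes in bins of the signal. NPNT (0.23) and ADAM9 (0.16) lie above the median at their level, MMP17 (0.01) lies below the 5th percentile, and ADAM23 (0.39) lies above the 95th.

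The members above background moved in different directions between replicates. In replicate 3, NPNT, ADAM9, ADAM10 and ADAM17 were lowest, and TIMP1, ADAM15 and MMP15 were highest. Of all named genes above background, 47.3% were lowest and 27.4% were highest in replicate 3, so 4 of 8 and 3 of 8 are near what other genes showed. The mean deviation of the 4 ADAM genes from the other replicates was 0.04, 0.07 and -0.11 in replicates 1, 2 and 3, and that of all 8 members 0.02, 0.05 and -0.07. The signs of these means in replicates 1 and 3 turned when members below background were included, and with 1 array for each replicate they have no test.

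**Figure D4:**
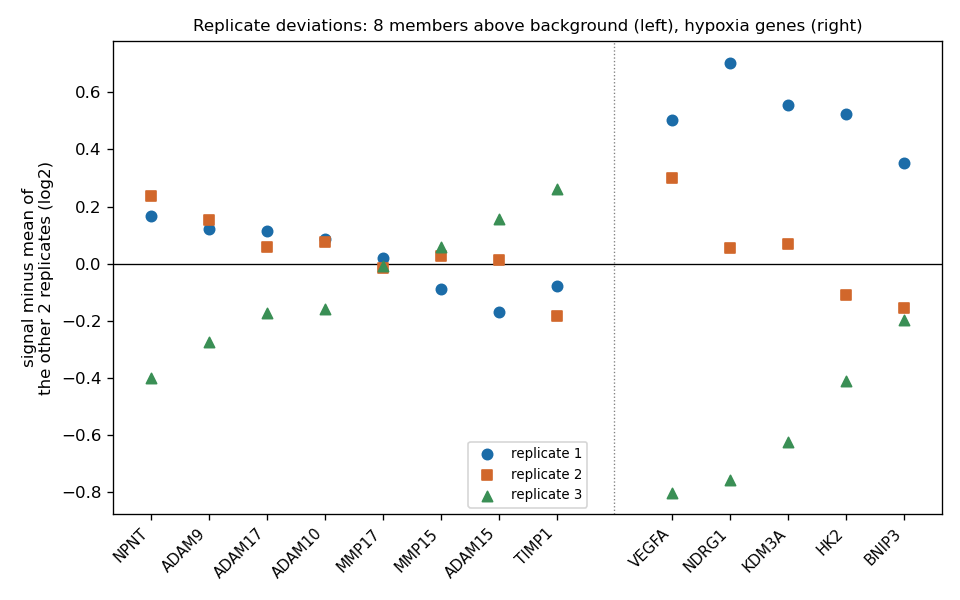
Signal of each replicate minus the mean of the other 2 (y axis, log2) for the 8 members above background (left) and for the 5 hypoxia-responsive genes above background (right). Replicate 3 runs from -0.40 (NPNT) to 0.26 (TIMP1) among the members, whereas it is the lowest replicate in all 5 hypoxia-responsive genes.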

How the data were processed

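RNA of 3 BTSH cultures was measured on HuGene 2.0 ST arrays. Per the labels and methods, RMA normalization was done by the authors with Expression Console 1.4, which gave the deposited log2 signals (53617 features in each array). Transcriptome Analysis Console 4.0 is named for differential expression. The features' genome build: not given in the sources used here. RMA sets the arrays to a common distribution, so a shift shared by all genes would not be seen.

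A GEO annotation of the platform named 16098 features with 1 gene each and 0 with several, and 37519 are unnamed here. All 16098 gene identifiers matched RefSeq genes of GRCh38.p14, from which symbols, neighbours and promoters were taken. A gene with several features (779 genes) is represented by the feature with the highest mean. Levels are means ± SD over 3 arrays, and no test was run, since there is 1 group. The text names NPNT, all members above background in any array, all TIMP genes, the 5 members with the largest SD, stromal matrix genes and members whose features disagree. The remaining members are given as well. The members and lists were chosen with earlier results of these data known. A planned description of protein sequences was not run.

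Alternatives were other backgrounds, a rule of 2 of 3 arrays, the mean of the features, quantile normalization, median centring and leaving out each replicate. The calculations were tested on simulated data. Python 3.11.15, numpy 2.4.6, pandas 2.3.3 and matplotlib 3.10.9 were used.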

Additional observations from a re-analysis of the deposited data

How the results depend on the processing

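The level of the background sets how many members pass, and it rests on few features, since its 90th percentile is 5.33, 5.54 and 5.61 in replicates 1, 2 and 3, over 1 below the 95th on the log2 scale. With the 90th percentile, 15 members were above background in all 3 arrays, as were 50.5% of all named genes. Among the 15 were 5 MMP, 2 TIMP and 2 matrix protein genes. So did 14 genes of the matrix machinery and 2 of the fibroblast, endothelial and leukocyte markers. With its 99th percentile, 6 members (12.5%) and 22% of all named genes passed. Among the 6 were 1 MMP gene (MMP15) and 0 matrix protein genes, since NPNT was above it in 2 arrays. With the 75th percentile of all features as background, 10 members (20.8%) and 39.6% of all named genes passed. The 10 include 4 MMP genes, and 2 of the fibroblast, endothelial and leukocyte markers passed as well. With a rule of 2 of 3 arrays, 1 such marker did. Leaving out 1 replicate gave 0 to 1 such markers and a median SD of 0.0598 to 0.0875, from fewer arrays. Without a background filter, the mean deviation of the ADAM genes was -0.0724 in replicate 1 and 0.0220 in replicate 3, of the opposite sign, since genes below background then enter. That of all members changed sign as well without the filter, to -0.0340 in replicate 1 and 0.0300 in replicate 3, and with quantile normalization to -0.0097 in replicate 1, so these deviations have no settled direction in replicates 1 and 3. With the mean of its features, MMP24 had a level of 5.80 and TIMP3 of 3.97. Both of these levels moved by more than the tolerance. The tolerance is a factor of 1.5 for counts and median SDs and the replicate SD for levels. For deviations it is the median SD of the members above background. A total of 207 values stayed within it, and the 3 deviations of all members that changed sign are among them. Another 18 values moved by more, and 1, the call of NPNT with the 99th percentile, was weaker. No paired analysis was possible because there is only 1 group.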
